A study of Bos taurus with 14 samples.

Results

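bta-miR-7 was followed in small extracellular vesicles (sEVs) of milk from 14 cows. It is 1 of 268 mature miRNA names and fills 3 of 350 miRNA/precursor entries, 1 for each of the precursors mir-7-1, mir-7-2 and mir-7-3. It was chosen on its diet contrast and on its levels in these cows, so both are described without a test. All 14 animals were Holstein dairy cows with subclinical mastitis (a positive or weakly positive California mastitis test without visible signs in the udder) on a single commercial farm, fed the same total mixed ration. The 7 inulin cows were given 300 g/d of inulin, a fermentable plant fibre, for 5 wk after an adaptation of 1 wk, and the 7 control cows were given none. Each library came from the milk of 1 cow, mixed from the milkings of the last day.

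miR-7 is a strongly conserved miRNA that is best known from neuroendocrine tissue such as the pituitary and the pancreatic islets. It binds mRNA of the growth factor pathway, among them those of the receptor EGFR and the insulin signalling adaptor IRS2, and in neurons it is bound by the circular RNA CDR1as. In cattle, as in other mammals, several precursors give the same mature strand. In the RefSeq annotation of ARS-UCD2.0, which matched 292 of 304 precursors by name, mir-7-2 lay within HNRNPK, the gene of an RNA-binding protein, and mir-7-3 lay between FEM1A and DPP9 outside protein-coding genes, while mir-7-1 had no match.

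The deposited values are read counts, and a name with several precursors is listed with nearly the same reads at each of them. The totals of the cows lay between 4165 and 415020 counts. Levels below are counts per 1000000 of the total of the cow (CPM), and a log2 CPM has 0.5 added to the count. Among miRNA usually abundant in milk, all 10 of a list were found, but miR-148a had only 72 counts in 9 of the 14 cows.

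The 3 miR-7 entries carried the same information. Their counts were equal in 13 of 14 cows, and in inulin cow 5 they were 369, 370 and 371. Summed over all cows, mir-7-1 had 3276 counts, mir-7-2 3277 and mir-7-3 3278. Reads cannot be assigned to a precursor from these values, and the mir-7-1 entry is used from here on. The listed length of miR-7 was 24 nt, a length given for 22 of the 348 entries with a length.

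In the control group, miR-7 had 113 counts in cow 1, 7 in cow 2, 121 in cow 3, 611 in cow 4, 36 in cow 5, 20 in cow 6 and 43 in cow 7. Scaled to the totals, these were 1522, 1681, 1674, 3448, 86.7, 662 and 1857 CPM. Cow 5 stood far below the other control cows, although it had the largest total of the study. In the inulin group, miR-7 had 16 counts in cow 1, 614 in cow 2, 155 in cow 3, 366 in cow 4, 369 in cow 5, 24 in cow 6 and 781 in cow 7. These were 84.2, 3487, 4431, 24693, 3266, 90.5 and 10399 CPM. Cows 1 and 6 lay as low as control cow 5, whereas cows 4 and 7 lay above every other cow of the study.

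**Figure D1:**
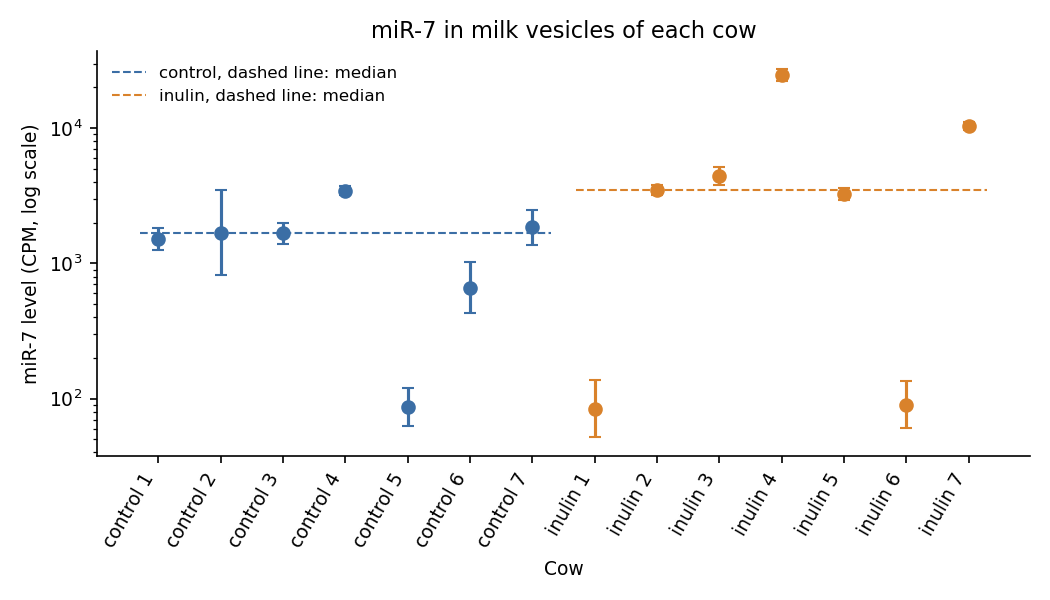
The miR-7 level of each cow in CPM on a log scale, control cows in blue and inulin cows in orange, with 95% Wilson intervals for counting error as bars and the median of each group as a dashed line. Control cow 5 and inulin cows 1 and 6 lie between 84.2 and 90.5 CPM, and the other 11 cows lie between 662 and 24693 CPM.

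The highest level was 293 times the lowest. Sorted by log2 CPM, the cows left their widest gap, 2.88, between inulin cow 6 and control cow 6, which was 35.3% of the whole range of 8.15. A gap above 33.3% of the range with at least 3 cows on each side was taken as the limit for describing the 3 low cows and the other 11 apart. The gap passed this limit by little. It was 29.4% of the range with TMM normalization and 26.3% with the total taken without the let-7 entries, although the same 3 cows were lowest in both. With counts thinned to the smallest total, 4 cows lay below the gap.

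The 3 low cows were close to each other. Control cow 5 had 0.00867% of its counts in miR-7, inulin cow 1 0.00842% and inulin cow 6 0.00905%. The Wilson intervals (95%, counting error only) of these shares reached up to 0.0137%, in inulin cow 1. The lowest bound among the other 11 cows was 0.0428%, in control cow 6. The cows were divided by these same values, so the distance between the sets is a description. At the median share of the other 11 cows, control cow 5 would have had 1356 counts of miR-7 in place of 36. Inulin cow 1 would have had 620 in place of 16 and inulin cow 6 866 in place of 24. Together the 3 cows held 52.2% of all counts of the study and 2.32% of those of miR-7. A lower share can mean fewer vesicles with miR-7, less miR-7 in each or more of the other miRNA, which cannot be told apart here.

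The rank of miR-7 among the mature names of a cow comes from the same counts and also moves with the number of names detected, which was 135 to 220 in the 3 low cows and 52 to 150 in the others. miR-7 had rank 6 in inulin cows 4 and 7 and ranks between 11 and 34 in the other 9 of the 11 cows. In inulin cow 6 it had rank 54 of 135 names detected, in inulin cow 1 rank 65 of 137 and in control cow 5 rank 81 of 220. Set against let-7b, one of the most abundant miRNA of these vesicles, miR-7 had between 0.439 and 0.525 counts per 1000 let-7b counts in the 3 low cows. In the other 11 it had between 3.13 and 170.0. The order also held against miR-151-5p, one of the names with the smallest spread between cows, with 14.05 to 20.04 miR-7 counts per 1000 in the 3 cows and 179 to 3935 in the others.

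The 3 low cows were also the 3 with the largest totals, 415020, 265214 and 189928 counts. The next in depth were control cow 4 with 177212 counts and inulin cow 2 with 176076, and their miR-7 levels were 3448 and 3487 CPM, both above the median of the 14 cows. The division by miR-7 level thus also set these totals apart. Among the other 11 cows r of the miR-7 level with log10 of the total was 0.01 (rho 0.15), a description that says nothing of the relation over all 14, since the deepest cows were left out by their miR-7 level. When all cows were thinned at random to 4165 counts, the 3 low cows had 0 counts of miR-7, which allows a share of up to 0.072%, and control cow 6 also had 0. The other 10 cows kept between 5 and 100. The part of depth in the low levels was not tested.

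**Figure D2:**
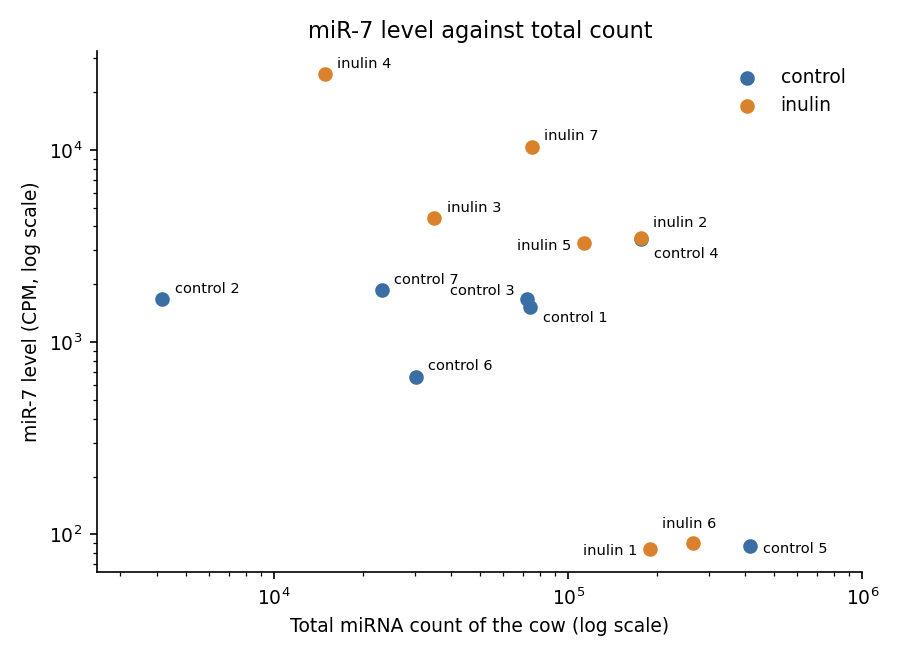
The miR-7 level in CPM against the total miRNA count of each cow, both on log scales, control cows in blue and inulin cows in orange. The 3 cows with the largest totals are the 3 with the lowest miR-7 levels, while control cow 4 and inulin cow 2, next in depth, lie near 3448 and 3487 CPM.

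miR-7 was chosen with its spread known, which is therefore only described. Of the 31 mature names with at least 1 count in every cow, it had rank 17 by mean level and rank 2 by SD. The SD of its log2 CPM was 2.51 over the 14 cows, against a median of 0.82 over the 31 names. Only miR-1246 had a larger SD, 2.67, and miR-184, known from lens and corneal epithelium, followed with 2.32. miR-30a-5p and miR-30d, just above miR-7 in mean level, had SD of 0.95 and 0.58, and let-7d and miR-375, just below, had 0.65 and 0.95. Without the 3 low cows the SD of miR-7 was 1.42, which was rank 3 of 31.

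**Figure D3:**
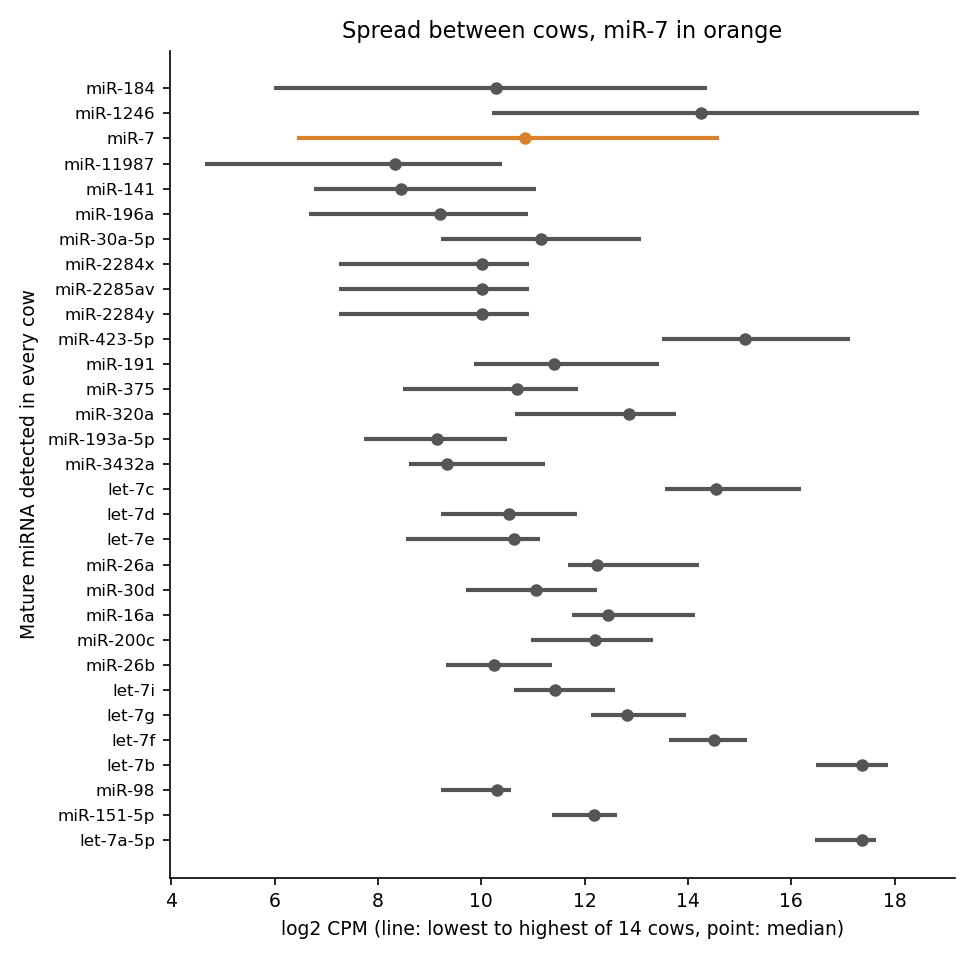
The lowest, median and highest log2 CPM over 14 cows for each of the 31 mature names detected in every cow, ordered by range, with miR-7 in orange. The range of miR-7 is 8.15, and let-7a-5p has the narrowest, 1.18.

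The diet groups overlapped. The control group had a mean of 1561 ± 1053 CPM (SD, n = 7) with a median of 1674, and the inulin group a mean of 6636 ± 8681 CPM (SD, n = 7) with a median of 3487. On the log2 scale the means were 10.09 ± 1.74 and 10.92 ± 3.20 (SD, n = 7 each), a difference of 0.84 that was smaller than either SD. Of the 7 inulin cows, 5 were above the control median and 4 above the highest control cow, but 1 was below the lowest. The low set held 1 control and 2 inulin cows. In the count model of edgeR with TMM normalization, the log2 fold change of inulin over control was 1.88 (standard error 0.88). It was 1.96 (standard error 0.95) with DESeq2, the tool of the study, and 0.64 (standard error 1.17) with limma-voom. Without inulin cow 4 the edgeR value was 1.01. miR-7 was chosen on this contrast, for which 9.05% of the 210 entries tested had an unadjusted p under 0.05 in edgeR, and nothing is read from its place among them.

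Whether other miRNA rose or fell with miR-7 was not used to choose it. Because the gap passed its limit with the main scaling, r over all 14 on that scale served only to order the names. The relation was tested over the 11 cows outside the low set, 6 control and 5 inulin. For a gap past the limit the plan had r as a description without p, so this test was not planned. The 30 other names detected in every cow were compared, which hold 28 distinct sets of counts because miR-2284x, miR-2284y and miR-2285av had equal counts. Each pair of values comes from 1 library and shares its total. The median r over the 30 names was -0.10, with 12 positive and 18 negative. After adjustment 1 name passed the test, 3.33% of those compared, and this was miR-196a. Without adjustment 3 did (10%), miR-196a, miR-151-5p and miR-375, of which miR-151-5p was named after its value was seen.

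miR-196a, which is encoded in the HOX clusters (mir-196a-2 lay between HOXC9 and HOXC10) and targets HOX mRNA, was low where miR-7 was high. Its level was 67.5 CPM in inulin cow 4 and 186 CPM in inulin cow 7, the cows with the most miR-7. It was 1224 CPM in control cow 6, which had the least miR-7 of the 11. The other 8 cows lay between 286 and 950 CPM. Pearson's r over the 11 cows was -0.94 (permutation p = 7e-05, adjusted p = 0.0021), and each doubling of miR-7 went with a change of -0.71 in the log2 level of miR-196a. Spearman's rho was -0.80 (permutation p = 0.00493), which was not called after adjustment (adjusted p = 0.148). Without inulin cow 4 and control cow 6, the 2 cows farthest from the median, r was -0.85.

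The relation had the same sign in the control cows and after removal of the diet means, but it was not called under every scaling. After the diet means were removed, r was -0.90 (permutation test, adjusted p = 0.0066), and in the 6 control cows alone it was -0.78 (exact permutation p = 0.0528, adjusted p = 0.458), whereas the 5 inulin cows were too few. With each cow left out in turn r stayed between -0.97 and -0.89. With the total taken without the let-7 entries, r was -0.13 (permutation test, adjusted p = 0.7). In that total miR-423-5p and miR-1246 held between 17.0% and 86.2% of the counts of the 11 cows. With counts thinned to 4165 it was -0.66 (permutation test, adjusted p = 0.268). The edgeR fit with miR-7 level and diet as terms gave a slope of -0.87 (standard error 0.33, adjusted p = 0.452). Inulin cow 4 had 1 count of miR-196a and control cow 2 had 2, and without these 2 shallow cows r was -0.89 (exact permutation test, adjusted p = 0.0388). A test over all 14 cows was added after seeing the data, with the scalings under which the gap was below its limit. The same 3 cows were lowest under these, so its p still draw on the low miR-7 levels. With TMM normalization r over 14 cows was then -0.75 (permutation test, adjusted p = 0.0445), and without the let-7 entries in the total it was -0.40 (permutation test, adjusted p = 0.686).

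In the 3 low cows, miR-196a was not low. It was 1911 CPM in inulin cow 1, the highest of all 14 cows, 958 CPM in inulin cow 6 and 549 CPM in control cow 5. The first lay above and the others within the range of the 11 cows.

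miR-11987, a miRNA with few counts, was the other name whose 3 lowest cows were the same as those of miR-7. It had 24.1 CPM in control cow 5, 64.1 in inulin cow 6 and 132 in inulin cow 1, and between 180 and 1339 CPM in the other 11. Its counts lay between 4 and 64 in all cows, while the totals differed by 99.6 times. Within the 11 cows it showed no relation with miR-7 that passed the test (r and rho were both 0.28, with adjusted permutation p of 0.741 and 0.934), and without the 2 farthest cows r was -0.24. Over all 14 cows r was 0.73 with TMM normalization (permutation test, adjusted p = 0.0445) and 0.75 without the let-7 entries in the total (permutation test, adjusted p = 0.0651). Both r include the 3 low cows, for which miR-11987 is named here, so these p add nothing to that overlap.

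**Figure D4:**
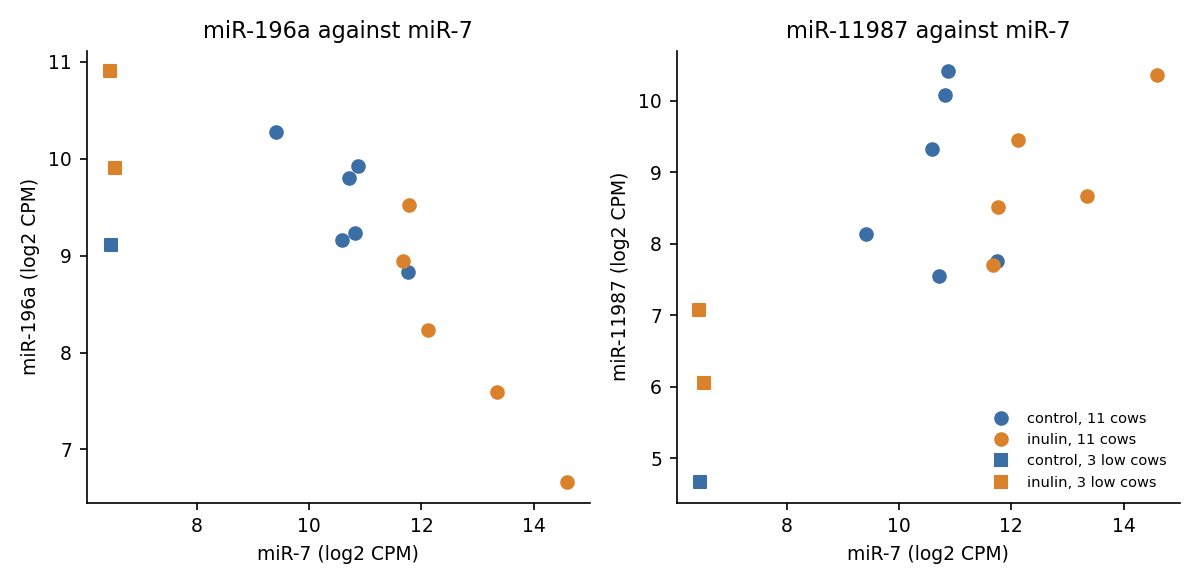
The log2 CPM of miR-196a (left) and miR-11987 (right) against that of miR-7 in 14 cows, control in blue and inulin in orange, with the 3 low cows as squares. Over the 11 cows drawn as circles miR-196a has r = -0.94 and miR-11987 r = 0.28, and in the 3 low cows miR-11987 is also at its lowest.

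Of the 3 low cows as a set, 19 of the 30 other names had a higher median log2 CPM there than in the other 11 cows, and 11 a lower one. No name had its 3 highest levels in these cows (0 of 31). The difference of medians was -5.22 for miR-7, -2.62 for miR-11987 and -2.13 for miR-423-5p. At the other end it was 1.18 for miR-141 and 0.91 for miR-200c, both of the epithelial miR-200 family, and 0.84 for miR-26a. These 3 cows were picked by their miR-7 level, and no test was made.

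The names with the highest and lowest r over all 14 cows were fixed as those to describe, 6 at each end. The upper 6 were miR-11987, let-7c, miR-184, miR-423-5p, miR-3432a and miR-193a-5p. Over the 11 cows their r were 0.28, 0.38, 0.18, -0.44, -0.31 and -0.02, of which 3 were negative. The lower 6 were miR-196a, miR-200c, miR-26a, let-7i, let-7g and let-7f, whose r over the 11 cows were -0.94, -0.35, -0.16, -0.56, -0.28 and -0.21. Besides miR-196a, the smallest adjusted p among these 12 was 0.527, that of let-7i (permutation test).

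miR-375 is, like miR-7, abundant in pancreatic islets and the pituitary. It ranged from 240 to 3711 CPM in the 11 cows and from 1669 to 3635 CPM in the 3 low cows, where it was not low. The 240 CPM were 1 count in control cow 2, and the 3711 CPM were in inulin cow 4. Over the 11 cows r was 0.63 (permutation p = 0.0388, adjusted p = 0.388) and rho was 0.59 (permutation p = 0.0619, adjusted p = 0.485). Without inulin cow 4 r was 0.40. In the 6 control cows r was -0.27 (exact permutation p = 0.638), and with the diet means removed it was 0.21 (permutation p = 0.533). Of the neuroendocrine and neural list only 4 of 10 miRNA were found, and besides miR-375 these were miR-182, miR-183 and miR-128 with 86, 15 and 14 counts. The neural markers miR-9 and miR-124 were not among the entries.

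miR-151-5p had r = 0.65 (permutation p = 0.0314, adjusted p = 0.388) and rho = 0.75 (permutation p = 0.0108, adjusted p = 0.163). It was called with the size factors of DESeq2 (r = 0.79, permutation test, adjusted p = 0.0453) and without control cow 4 (r = 0.92, permutation test, adjusted p = 0.00135). In the 6 control cows its r was -0.48 (exact permutation p = 0.318). Over all 14 cows with TMM normalization r was -0.13 for miR-151-5p and -0.11 for miR-375 (permutation tests, adjusted p = 0.796 and 0.809).

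The let-7 family, differentiation-linked miRNA, had no member that passed the test over the 11 cows as they were. All let-7 entries, with each precursor counted, held 41.1% to 91.2% of the counts in the 11 cows. With 1 entry per name and miR-98 added, this was 21.8% to 51.7% of the same totals. Of the 9 let-7 and miR-98 names, 6 had a negative r over the 11 cows, with a median of -0.05, against -0.10 over the 30 names. let-7e, which was not among the names fixed for description, had r = -0.41 (permutation p = 0.214, adjusted p = 0.715). With the diet means removed it was -0.82 (permutation test, adjusted p = 0.0297), but without the 2 farthest cows it was 0.71 and without inulin cow 4 alone 0.24. Inulin cow 4 had 5 counts of let-7e.

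**Figure D5:**
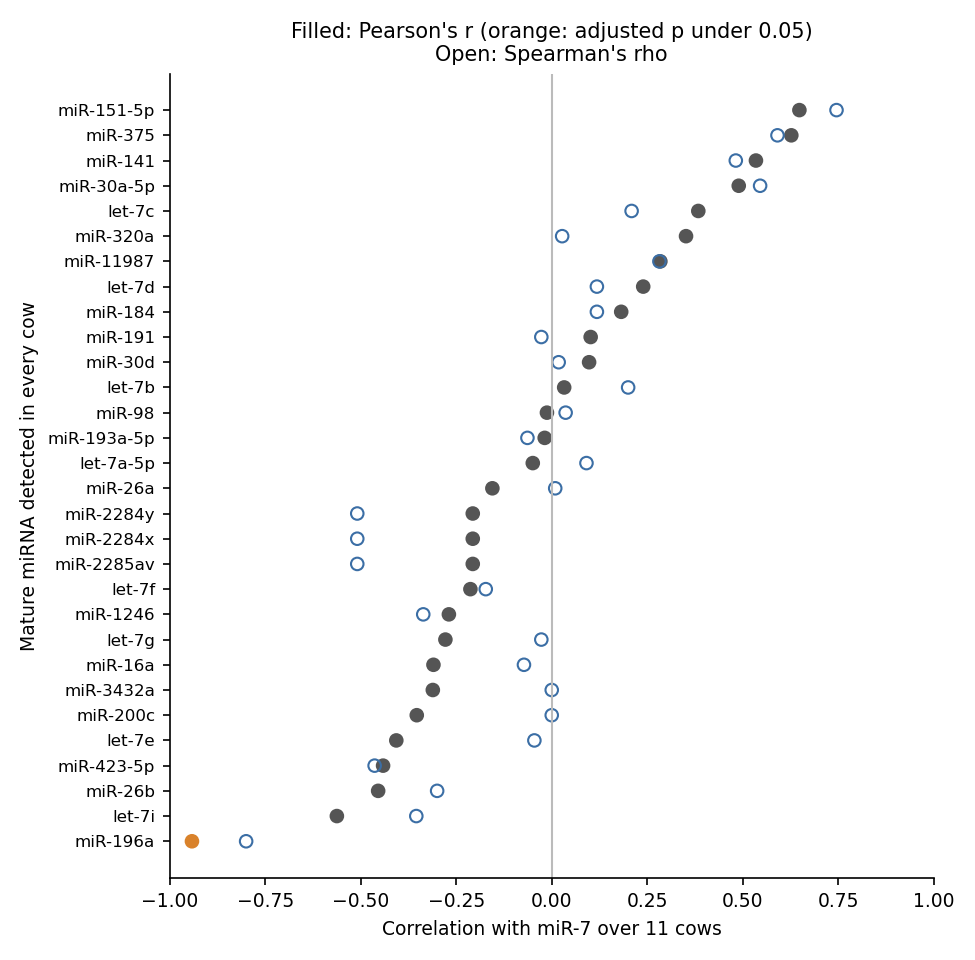
Correlation of each of the 30 other names with miR-7 over the 11 cows outside the low set, with Pearson's r as filled and Spearman's rho as open points. Only miR-196a, in orange at r = -0.94, has an adjusted p under 0.05 for r, and its rho of -0.80 has an adjusted p of 0.148.

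The summed levels of the other lists were set against miR-7 in the same 11 cows. The milk-abundant list had r = 0.61 (permutation p = 0.0496, adjusted p = 0.198) but rho = 0.29 (permutation p = 0.386), and without the 2 farthest cows r was -0.23. The neuroendocrine and neural list, mostly miR-375, had r = 0.65 (permutation p = 0.028, adjusted p = 0.198). The epithelial list had r = -0.27, the leukocyte list -0.33, the erythrocyte list 0.04 and the let-7 list 0.09 (permutation tests, adjusted p = 0.768, 0.768, 0.964 and 0.964). None of the 8 relations of this family passed the test (0 of 8, 2 at an unadjusted p under 0.05).

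In the 3 low cows, 5 of 7 epithelial miRNA were found (miR-205 and miR-203 were not), and their sum was 0.662% to 1.35% of the counts, against 0.256% to 0.751% in the others. Of the leukocyte list 6 of 7 were found (miR-146a was not), with 0.0354% to 0.184% in the 3 cows and 0.013% to 0.0993% in the others. The erythrocyte marker miR-486 had 5 counts in 2 of the 11 cows and 0 in the 3, and miR-451 and miR-144 were not among the entries. Higher shares were not limited to these lists. The milk-abundant list had 2.00% to 4.43% in the 3 low cows and 1.38% to 2.37% in the others. For the neuroendocrine and neural list these were 0.174% to 0.373% and 0.048% to 0.371%. For the let-7 list they were 39.3% to 46.7% and 21.8% to 51.7%. The sums overlapped between the sets, and their part in the miR-7 levels was not tested.

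miR-423-5p, miR-6529a, miR-22-3p, miR-339a and miR-339b had been picked on the same diet contrast as miR-7, so their r over both diets is given as a description. For miR-423-5p, r over the 11 cows was -0.44 and with the diet means removed 0.01. For miR-1246, described for its spread, it was -0.27, and 0.30 with the diet means removed. miR-6529a, found in 12 cows (9 of the 11), had r = -0.74 when names with at least 10 counts were compared (155 names). miR-22-3p, found in 10 cows (7 of the 11), had r = -0.57. Both had 0 counts in inulin cows 4 and 7, which had the most miR-7, so their log2 levels there come from the 0.5 added. miR-339a and miR-339b had counts in only 8 cows.

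Diet differences were tested for the 12 names with the highest and lowest r over all 14 cows. These r were with miR-7, itself chosen on this contrast, so the 12 were not picked independently of diet. Of the 12, none had an adjusted p under 0.05 in edgeR (0 of 12, 1 at an unadjusted p under 0.05), which was also true of all 210 entries tested (0%). DESeq2 gave the same counts for the 12. The 1 name was miR-423-5p, which the study had called on this contrast, at -1.29 ± 0.54 (log2 fold change ± standard error, edgeR adjusted p = 0.439). For miR-196a the same value was 0.09 ± 0.66 (edgeR adjusted p = 0.985), with 729 ± 293 CPM in the control group and 661 ± 633 CPM in the inulin group (SD, n = 7 each). For miR-11987 it was -0.11 ± 0.79 (edgeR adjusted p = 0.985). miR-151-5p and miR-375, which had the highest r over the 11 cows, are not among the 12. Their values were 0.59 ± 0.37 and 1.10 ± 0.54 (edgeR adjusted p = 0.835 and 0.528).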

How the data were processed

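The authors trimmed and filtered reads by adapter, length and quality, annotated them with Rfam and miRBase, and quantified them with miRDeep2. Their processing notes name ARS-UCD 1.2. The deposited counts are not normalized. The deposited rpm, which the authors scaled to the total of each cow, lay within 0.005 of values computed here from the counts. The listed length of each miRNA is another deposited value. All results start from the counts, for 7 control and 7 inulin cows grouped by their labels.

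Names with several precursors were represented by the one with the most counts, and miR-7 by mir-7-1. Correlations over all 14 cows had been planned with a test. For a gap past its limit the plan gave r between names as a description without p. Tests over the 11 cows, and over the 6 control cows among them, were not in that plan. The tests used 100000 permutations (all orders for under 10 cows) with Benjamini-Hochberg adjustment, two-sided. Diet differences came from the quasi-likelihood test of edgeR (4.0.16, R 4.3.3) on entries with at least 10 counts. DESeq2 (1.42.0) and limma-voom (limma 3.58.1) were alternatives. Other steps ran in Python 3.11.15 with SciPy 1.17.1, NumPy 2.4.6, matplotlib 3.10.9 and pandas 2.3.3. The fits were checked on simulated data.

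Names described were the miR-7 entries, the 6 names with the highest and the 6 with the lowest r over all cows, the 2 next above and below miR-7 in mean level, those the study called by diet, miR-1246, miR-375 and the most abundant members of each list. Members and lists were chosen with earlier results of these data known. Totals ranged from 4165 to 415020 counts, where 3 counts, taken as detectable, are 0.072% and 0.000723%. Intervals cover counting error only. The labels name no batch. Names sharing the seed of miR-7 were not analysed here. No positions are given because the gene table uses another assembly.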

Additional observations from a re-analysis of the deposited data

Results flagged for a closer look

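A cow far from the others of its group was sought with Dixon's ratio (limit 0.568 for 7 cows) in 32 sets of log2 CPM of names other than miR-7, of which chance would pick about 1 in 20, or 1.6. The miR-26a level of control cow 5 was 14.22 on the log2 scale, above the next control cow at 12.79 (ratio 0.609). The miR-151-5p level of control cow 4 was 11.37, below the next at 11.86 (ratio 0.66). The let-7e level of inulin cow 4 was 8.54, from 5 counts, below the next at 10.56 (ratio 0.793).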

How the results depend on the processing

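The number of names related to miR-7 was 1 in the main test. It was 2 with the size factors of DESeq2 (miR-151-5p besides miR-196a), and 2 with the diet means or with the diet means and log10 total removed (let-7e besides miR-196a). It was 0 without the let-7 entries in the total (9 names at an unadjusted permutation p under 0.05), 0 with thinned counts (3 names), 0 with Spearman's rho (2 names) and 0 with miR-7 and diet as terms in edgeR (7 of 128 names). The cause was not tested. With each cow left out it was 1 to 2, and it was 2 only without control cow 4. It was also 1 without 2 cows under 20000 counts, which was added after seeing the data. Also added then, a test over all 14 cows took in the 3 low cows, which had been set apart by their miR-7 level. It called 2 names with TMM normalization (miR-196a and miR-11987). Without the let-7 entries in the total it called 0, with 1 name at an unadjusted permutation p under 0.05. Over the 11 cows, as a description, the r of miR-7 with log10 of the total went from -0.17, without control cow 2, to 0.37, without inulin cow 4. Of the 11 values with a cow left out, 5 were negative. Leaving out a low cow changes nothing here. The range of miR-7 was 6.90 to 8.68 on the log2 scale over all alternatives. Its log2 fold change stayed positive, from 0.64 to 2.29. With the replicate number as a block it was 1.15, and the block moved the entries with an adjusted p under 0.05 in edgeR from 0 to 1 and those at an unadjusted p under 0.05 from 19 to 7. The numbers count the cows of each group separately, the correlation of same-numbered cows went from -0.60 to 0.62, and 1 of 7 correlated best with its own number. Of 831 values under alternatives, 807 kept their call or stayed within the spread allowed for them. Apart from r with log10 of the total, a change of sign between values that were not called was not counted. The diet difference of miR-196a, for example, changed sign in 7 of 14 fits with a cow left out. The 807 also hold values over the 11 cows that could not change when a low cow was left out. The 5 inulin cows of the 11 are too few for an r of their own.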
